A study of Mus musculus with 6 samples.

Results

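The genes described here are the cytoplasmic ribosomal protein genes, which encode the protein subunits of the ribosome outside mitochondria. They were taken by symbol: Rpl or Rps followed by a digit, together with Rplp0, Rplp1, Rplp2 and Rpsa. Kinase genes (10 symbols starting with Rps6k) and 6 symbols holding -ps were left out. The rule gave 87 genes of 21827 listed, 52 with large-subunit and 35 with small-subunit symbols. Of these, 77 are the standard subunit genes and 10 are paralogs, retrogenes or, in the case of Rps19bp1, a gene whose product is not a ribosomal protein. With a level of at least 1 TPM (an abundance per transcript length, scaled to a fixed total in each library) in at least 3 libraries, 84 of the 87 entered the tests. The other 3 are Rpl10l, listed at 0 in every library, and Rpl3l and Rpl39l, with means of 0.028 and 0.099 TPM.

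A ribosome holds 1 copy of most of these proteins, so cells make them in matched amounts. Their mRNAs are short, abundant and long-lived, and many begin with a C followed by a run of pyrimidines at the cap, the 5′ terminal oligopyrimidine or TOP motif, through which growth signals set their translation. Neural crest cells, which build the skeleton and connective tissue of the jaw, are known for their sensitivity to reduced ribosome production.

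Polyadenylated RNA was sequenced from the distal mandible, which forms the front of the lower jaw, of single mouse embryos at E10.75. Each of 3 litters gave 1 library labelled mutant and 1 labelled control. The mutant genotype is Msx1f/f with Msx2f/f, Rosa26mTmG/+ and Hand2-Cre. The control genotype is Msx1f/+ with the same other alleles. Both labels thus carry a homozygous floxed Msx2, so no library is from an embryo with intact Msx genes. Cre is under Hand2 control, which limits recombination to cells with that activity. The samples were distal mandibles positive for GFP, the colour the reporter takes after recombination.

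Msx1, the homeobox gene that the labels distinguish (ENSMUSG00000048450, GRCm38, chromosome 5, 37820485 to 37824583, minus strand), checks those labels. In litter 1 it was at 1.90 TPM in the mutant-labelled library and 84.1 TPM in the control-labelled library. In litter 2 it was at 78.8 TPM in the mutant-labelled library and 2.61 TPM in the control-labelled library. In litter 3 it was at 73.3 TPM in the mutant-labelled library and 1.99 TPM in the control-labelled library. The order in litters 2 and 3 goes against the labels, so every direction by label below refers to the label alone, and values are also set beside the Msx1 level. No averages or tests by Msx1 level were made, since that would group embryos by a measured value. All 14 mesenchyme markers of the distal mandible reached 1 TPM in every library, among them Prrx1, Twist1 and Hand2. Red blood cell markers made up 3.07% of listed TPM in the mutant-labelled library of litter 1 and between 0.963% and 1.32% in the other 5.

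The sequences described here are those at the gene starts and coding sequence shared with other genes. RefSeq start sites (GRCm38.p6) were found for 67 of the 87 genes. At the annotated start, 14 of 67 (20.9%) had a C followed by at least 4 further C or T on the transcript strand, against 2.70% of 16718 listed genes with an entry and 0 of 69 mitochondrial ribosomal protein genes. Of translation factor genes with TOP mRNAs, 1 of 12 (8.33%) had it at the annotated start. Allowing the run to begin within 5 bases of the annotated start, 46.3% of the ribosomal protein genes and 21.7% of all listed genes had it. So did 33.3% of the 12 translation factor genes, 31.8% of 22 short nuclear respiratory chain genes and 24.6% of the mitochondrial ribosomal protein genes. The windows below run from 20 bases before the start to 20 bases from it, and show genes from both subunits that the results turn on or that carry long runs. Capitals mark the C and T run.
Rps6 (chr4:86857348-86857387, minus strand): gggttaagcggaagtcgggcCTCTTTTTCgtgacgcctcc
Rpl28 (chr7:4792945-4792984, plus strand): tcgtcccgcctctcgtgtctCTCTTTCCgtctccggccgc
Rps10 (chr17:27635225-27635264, minus strand): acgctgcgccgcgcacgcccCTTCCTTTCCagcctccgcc
Rpl35 (chr2:39005112-39005151, minus strand): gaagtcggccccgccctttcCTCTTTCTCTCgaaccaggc
Rplp2 (chr7:141447631-141447670, plus strand): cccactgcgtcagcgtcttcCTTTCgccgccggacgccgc
Rpl10 (chrX:74270796-74270835, plus strand): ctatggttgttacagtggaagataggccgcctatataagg

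The runs in these windows range from 5 bases in Rplp2 to 11 in Rpl35, and Rpl10 has none at its annotated start. Over the window from 250 bases before to 50 after the start, CCGGAAG on either strand was found in 26 of 67 ribosomal protein genes (38.8%) and in 13.3% of all listed genes. The mitochondrial ribosomal protein genes had it in 37.7%. GGGCGG on either strand was in 61.2% against 50.9% of all listed genes, and TATAA on either strand in 26.9% against 24.8%. None of these 3 motifs contains another, and a match is a run of letters, not a measured site.

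Rps27 and its retrogene Rps27rt show how alike listed rows can be. Their start windows share an unbroken run of 19 bases.
Rps27 (chr3:90213629-90213668, minus strand): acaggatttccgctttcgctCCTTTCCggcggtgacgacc
Rps27rt (chr9:114982720-114982759, minus strand): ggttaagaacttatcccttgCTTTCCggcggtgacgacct
Their coding sequences, each of 255 bases, are identical, with no mismatch in the GENCODE M21 transcripts, so a read within it cannot be placed in one gene or the other.
Rps27 and Rps27rt coding sequence: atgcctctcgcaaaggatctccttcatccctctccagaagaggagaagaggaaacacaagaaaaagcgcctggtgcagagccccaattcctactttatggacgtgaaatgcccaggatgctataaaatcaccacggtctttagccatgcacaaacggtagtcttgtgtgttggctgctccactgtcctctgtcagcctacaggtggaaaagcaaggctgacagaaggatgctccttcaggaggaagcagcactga

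Such sharing is the rule for this family, which has many processed pseudogenes. Cutting each coding sequence into runs of 31 bases, all runs of 31 of the 77 standard subunit genes also occurred in transcripts of other genes in GENCODE M21, and over 90% did in 56 genes. The median was 97.4% of coding runs and 54.8% over whole transcripts. Rpl8 and Rps3 had under 20% of coding runs shared. For 68 of the 77, the gene sharing most was not among the listed rows, so where its reads were assigned cannot be seen in the files. The levels below are therefore uncertain in their division between a gene and its copies.

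Ribosomal protein mRNAs were among the most abundant in the tissue. Of the 100 genes with the highest mean TPM, 53 were ribosomal protein genes. The median of the mean levels of the 77 standard subunit genes was 1708 TPM, against 1.95 TPM over all listed genes, and 56 of the 77 had a mean of at least 1000 TPM. Rpl41, which encodes the smallest ribosomal protein, was highest with a mean of 11482 TPM. It was followed by Rpl31 (5840 TPM), Rplp2 (5043 TPM), Rpl32 (4865 TPM) and Rps27 (4478 TPM).

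At the other end, 3 standard subunit genes had means under 100 TPM, although each ribosome needs their protein as much as that of the others. Rpl12, a protein at the base of the stalk, ran from 20.6 to 25.2 TPM over the 6 libraries. Rps20, a protein of the small-subunit head, ran from 37.3 to 52.1 TPM, and Rpl5, which carries the 5S ribosomal RNA, from 56.0 to 75.2 TPM. Every coding run of Rpl12 and of Rpl5, and 94.5% of those of Rps20, also occurred in other genes. TPM is per transcript length, and low TPM was not always low counts. The mean normalized count in the authors' deposited table was 1988 for Rps20 (48.4 TPM) and 2197 for Rps21 (1269 TPM). The transcripts taken here have 3706 and 394 bases. The count was 1378 for Rpl5 and 217 for Rpl12. The part of length in these levels was not tested. Rps16 (133 TPM), Rpl27a (184 TPM) and Rpl23 (206 TPM) were the next lowest by mean.

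In TPM, these genes were low in every library. The log2 level of Rpl12 had an SD of 0.075 after the median of all ribosomal protein genes in each library was taken off.

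The summed share of listed TPM differed between libraries more than by label. Ribosomal protein genes took 23.4% of listed TPM in the mutant-labelled library and 19.7% in the control-labelled library of litter 1. They took 22.8% and 23.0% in litter 2, and 23.2% and 20.9% in litter 3, in the same order. The means were 23.1% ± 0.332 (SD, n = 3) for the label mutant and 21.2% ± 1.65 (SD, n = 3) for the label control. The groups overlapped, and the difference of 1.94 percentage points had p = 0.2 in a two-sided exact permutation test, which cannot go below 0.1 with 3 against 3.

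Set beside Msx1, the shares overlapped as well. The 3 libraries with Msx1 under 10 TPM had 23.4%, 23.0% and 20.9%, and the 3 with Msx1 over 50 TPM had 19.7%, 22.8% and 23.2%. The control-labelled library of litter 1 was the lowest of the 6 and also had the largest mitochondrially encoded share, 8.03% against 6.02% to 6.51% in the others. The part of that in the ribosomal protein share was not tested. In bulk tissue, fewer cells of a type and less RNA per cell cannot be told apart.

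**Figure D1:**
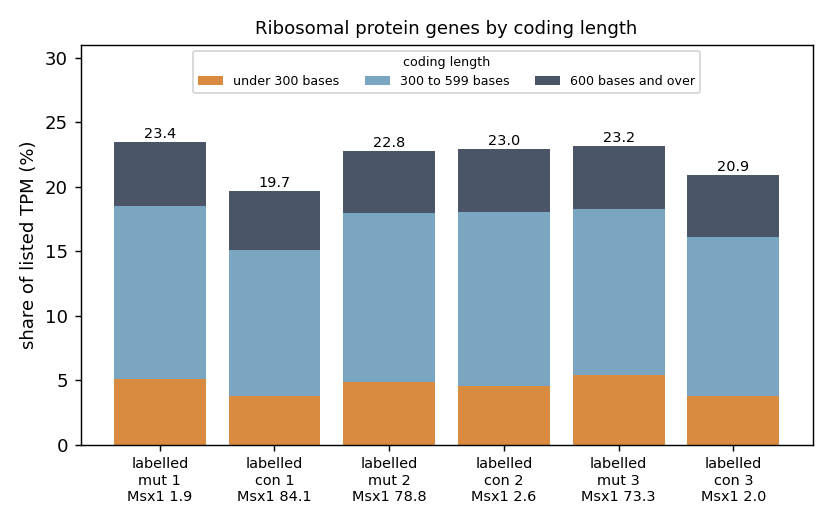
Share of listed TPM (percent, y axis) taken by ribosomal protein genes in each library (x axis, with the label, the litter and the Msx1 TPM), stacked by coding length. The total lies between 19.7% and 23.4%, and the segment of genes under 300 bases is higher in all 3 mutant-labelled libraries than in any labelled control.

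Of the 1.94 points by label, 1.03 lay in the genes with the shortest coding sequences. The 12 genes with a coding sequence under 300 bases took 5.06%, 4.82% and 5.39% of listed TPM in the mutant-labelled libraries of litters 1, 2 and 3. They took 3.81%, 4.58% and 3.80% in the control-labelled libraries. The groups did not overlap: the means were 5.09% ± 0.285 (SD, n = 3) and 4.06% ± 0.445 (SD, n = 3), and the exact permutation p was 0.1, the smallest this design allows. The 50 genes of 300 to under 600 bases took between 11.3% and 13.4% (exact permutation p = 0.4). The 25 genes of 600 bases and over took between 4.59% and 4.95% (exact permutation p = 0.4). Both longer classes overlapped between labels. The length classes were added after values were seen, so the p-values by class are a description and no support for a difference by label.

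Most ribosomal protein genes varied little between libraries, about as much as other abundant genes, and a few varied widely. The log2 level had a median SD of 0.144 over the 6 libraries in the 77 with a mean of at least 100 TPM, against 0.123 in 813 other genes at that level. After the median of the family was taken off each library, the median SD of the 84 tested genes was 0.119. The SD was under 0.1 for 34 of 84 genes and over 0.3 for 5. Genes with the smallest spread included Rpl24 (SD 0.032), a large-subunit protein near the subunit interface, and Rps3 (SD 0.037), at the mRNA entry channel. The 5 with the widest spread were Rps27rt, Rpl29, Rps13, Rpl30 and Rps23rg1, the last of which is a retrogene near 1 TPM.

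By label, a gene was counted as departing from the rest when its log2 difference lay further from the median of the family than 3 scaled median absolute deviations, that is outside -0.39 to 0.54. Rpl29, Rps13 and Rps27rt departed. Rps29, at 0.43, lay just inside. Since the same differences chose these genes, their labelled values are a description.

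Rpl29, a large-subunit protein also described as a heparin-interacting protein (ENSMUSG00000048758, GRCm38, chromosome 9, 106429454 to 106431568, plus strand), was low in 2 libraries. It was at 1173 TPM in the mutant-labelled library and 986 TPM in the control-labelled library of litter 1. In litter 2 the values were 183 and 1210 TPM, and in litter 3 they were 196 and 965 TPM, in the same order. The mutant-labelled libraries of litters 2 and 3, both with Msx1 over 50 TPM, were far below the other 4, while the third library with high Msx1, labelled control in litter 1, was not low. By label the log2 difference was -1.59 ± 0.70 (SE), with an adjusted p of 0.727 in limma (Benjamini-Hochberg over 12152 genes). Leaving out each library in turn, it ranged from -2.46 to -1.13, with an adjusted p from 0.00177 to 0.918 in limma. The -2.46 and the 0.00177 came without the mutant-labelled library of litter 1, the only mutant-labelled one that was not low. That run is thus a description and no support for a difference by label. Of the coding runs of Rpl29, 99.1% also occurred in other genes. The listed row sharing most with it, Gm3550, stayed between 3.45 and 4.75 TPM.

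Rps13, a small-subunit protein (ENSMUSG00000090862, chromosome 7, 116331505 to 116334195, minus strand), was high in a single library. It was at 1211 TPM in the mutant-labelled library of litter 2 and between 247 and 323 TPM in the other 5. By label the log2 difference was 0.67 ± 0.58 (SE), and -0.041 without that library. All coding runs of Rps13 occurred in other genes as well, and the one sharing most, the processed pseudogene Rps13-ps1, is not among the listed rows.

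Rps27rt (ENSMUSG00000050621, chromosome 9, 114982366 to 114982739, minus strand) was listed at 139 TPM and 0 in litter 1, 0 and 126 TPM in litter 2, and 77.9 TPM and 0 in litter 3, with the mutant-labelled library first. Its parent Rps27 was at 4810 and 3542 TPM, 4667 and 4840 TPM, and 5058 and 3948 TPM in the same libraries. The rows at 0 stood beside high levels of a gene with the same coding sequence, so no fold is given for Rps27rt. In each litter the library in which Rps27rt was listed above 0 was also the one with more Rps27.

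Other genes stood apart by litter or by single libraries. Rpl30, a large-subunit protein (ENSMUSG00000058600, chromosome 15, 34440505 to 34443640, minus strand), was at 1693 and 921 TPM in litter 1, 1662 and 1857 TPM in litter 2, and 978 and 1389 TPM in litter 3, the mutant-labelled library first. The library with less Msx1 had more Rpl30 in each litter, but the groups by Msx1 level overlapped. Rps3a1 was at 1234 and 1264 TPM in the 2 libraries of litter 2 and between 1433 and 1711 TPM in the other 4. Rpl22l1, a paralog of Rpl22, ran from 166 to 289 TPM, and Rpl13a from 678 to 1117 TPM.

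**Figure D2:**
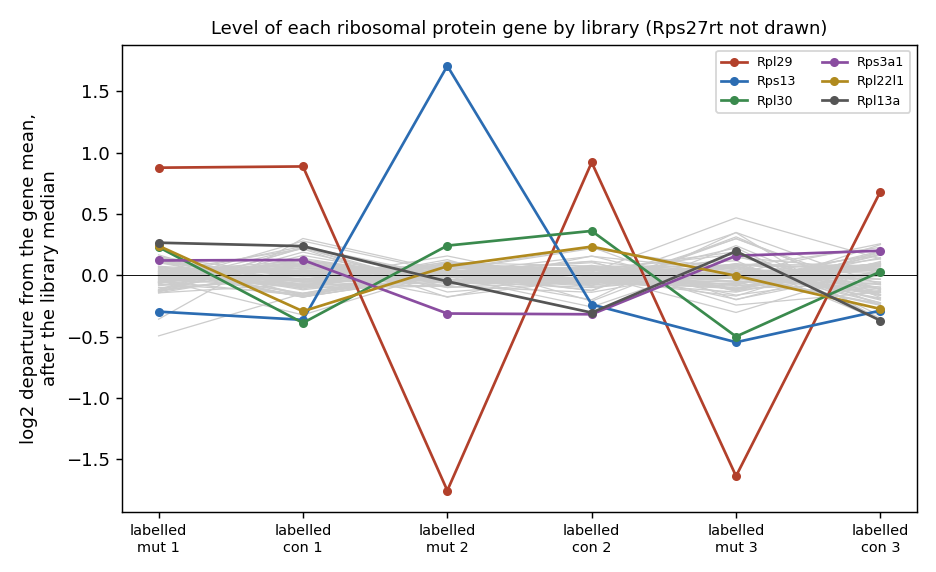
Log2 level of each tested gene (Rps27rt not drawn) as a departure from its own mean after the median of all ribosomal protein genes was taken off each library (y axis), for the 6 libraries in litter order (x axis). Grey lines are single genes; Rpl29 drops in the mutant-labelled libraries of litters 2 and 3, Rps13 peaks in the mutant-labelled library of litter 2, and most others stay close to 0.

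**Figure D3:**
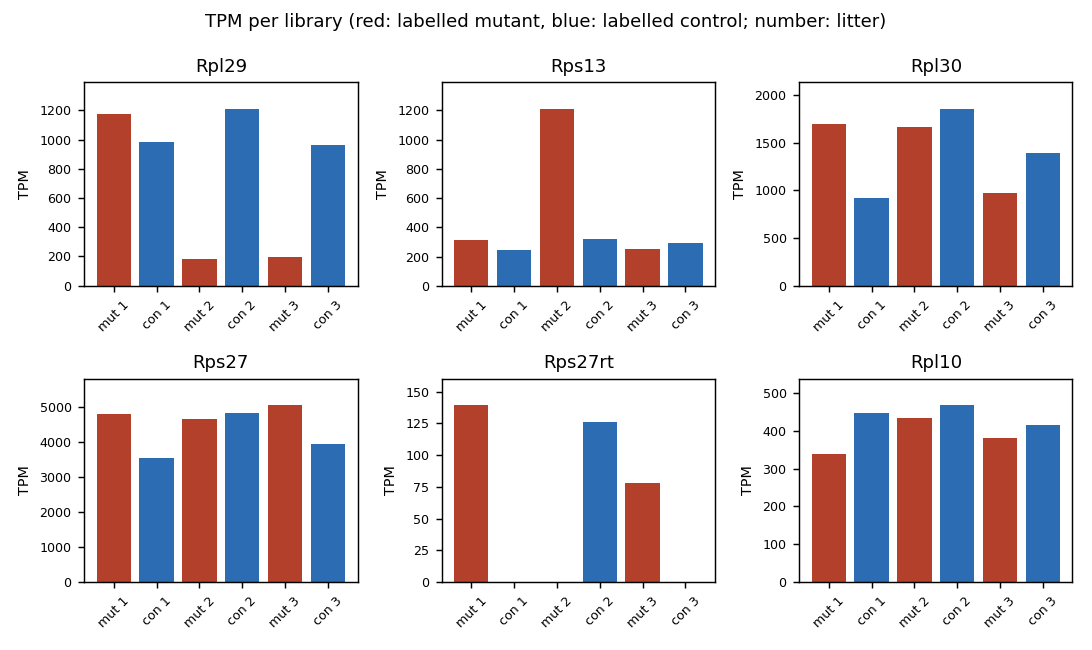
TPM (y axis, from 0) of 6 genes in each library (x axis; red, labelled mutant; blue, labelled control; the number is the litter). Rpl29 is at 183 and 196 TPM in 2 libraries and between 965 and 1210 TPM in the others, and Rps27rt is listed at 0 in 3.

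The paralogs were mostly low beside their parents. Rpl36al, at 801 to 948 TPM, was the most abundant paralog, and its coding sequence is 87.9% identical to that of Rpl36a (1475 to 1885 TPM). Rps27l ran from 224 to 304 TPM with 76.1% identity to Rps27, and Rpl22l1 has 67.5% identity to Rpl22. Rpl7l1, which takes part in ribosome assembly, ran from 37.2 to 42.0 TPM and was among the steadiest rows. The testis-expressed paralogs Rpl10l and Rpl39l and the muscle-expressed Rpl3l were at or near 0, as given above.

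For Rpl10, a large-subunit protein that joins the particle late in assembly, the row of the parent gene held less than the row of its retrocopy. Rpl10 was at 339 and 447 TPM, 434 and 468 TPM, and 382 and 416 TPM in litters 1, 2 and 3, with the mutant-labelled library first. Rpl10-ps3 (chromosome 9, 50344201 to 50344968, minus strand), which the symbol rule leaves out, was at 2792 and 2888 TPM, 2816 and 3061 TPM, and 2647 and 2682 TPM. The coding sequences of Rpl10 and Rpl10-ps3 are identical over all 645 bases, so the division between them is uncertain. A similar pair is Rpl35, between 215 and 375 TPM, and Gm2000, a listed row at 301 to 575 TPM with which Rpl35 shares 40.9% of its runs.

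In the labelled comparison no gene passed the threshold. limma on log2(TPM + 1) called 0 of 12152 genes at an adjusted p of 0.05 (0% called; 817 had an unadjusted p under 0.05) and 0 of 84 ribosomal protein genes. The smallest adjusted p among them was 0.489, for Rps29. At an unadjusted p of 0.05, 12 ribosomal protein genes were higher in the mutant-labelled libraries (1.9% of all genes tested) and 0 were lower (4.82% of all genes tested). After median-of-ratios scaling 20 were higher and 0 lower, beside 410 and 305 of all genes tested. After quantile normalization 12 were higher and 4 lower, beside 366 and 347 of all genes tested.

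The point estimates lay mostly above 0. Of 84 genes, 62 had a higher mean in the mutant-labelled libraries and 22 a lower one, whereas 34.6% of all genes tested had a higher mean. The median log2 difference was 0.071 for the ribosomal protein genes and -0.062 for all genes tested. After median-of-ratios scaling, which brings the median of all genes to about 0, the split was 72 to 12 and the median 0.14, and after quantile normalization it was 54 to 30 and 0.037. Without the control-labelled library of litter 1 the split was 43 to 41 and the median 0.017, and without the control-labelled library of litter 2 it was 66 to 18 and 0.14. Without the latter, 32 of the 84 had an unadjusted p under 0.05 and a higher mean, as did 364 of all 12152 genes tested, and 969 of all genes had a lower one.

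In 13 genes all 3 mutant-labelled libraries lay above all 3 labelled control (2.73% of all genes tested), and in 3 genes they lay below (10.4% of all genes tested). The 13 were Rpl13, Rpl23, Rpl35a, Rpl36, Rpl37a, Rpl38, Rpl41, Rplp1, Rplp2, Rps15a, Rps21, Rps28 and Rps29, and the 3 were Rpl4, Rpl7a and Rpl15.

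Rps29, a zinc-binding small-subunit protein and one of the smallest (ENSMUSG00000034892, chromosome 12, 69157722 to 69159186, minus strand), had the smallest p of the family. It was at 5009, 4804 and 5120 TPM in the mutant-labelled libraries of litters 1, 2 and 3 and at 3559, 3909 and 3590 TPM in those labelled control. The log2 difference was 0.43 ± 0.07 (SE), with an adjusted p of 0.489 in limma. It lay between 0.41 and 0.48 when each library was left out.

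Rpl41 was at 13076, 12469 and 13400 TPM in the mutant-labelled libraries and 9353, 11614 and 8982 TPM in those labelled control, a log2 difference of 0.39 ± 0.11 (SE). Rps21, a small-subunit protein, was at 1351, 1315 and 1581 TPM against 1050, 1217 and 1102 TPM, a log2 difference of 0.33 ± 0.10 (SE). Rpl38, a large-subunit protein whose loss in mice alters skeletal patterning, was at 2689, 2532 and 3056 TPM against 1917, 2451 and 2253 TPM, a log2 difference of 0.33 ± 0.11 (SE). In these genes the 2 labels came closest in litter 2.

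The stalk proteins, which recruit translation factors, did not show equal differences. Rplp1 was at 4719, 4376 and 4600 TPM in the mutant-labelled libraries and 3121, 4333 and 3108 TPM in those labelled control. Rplp2 was at 5702, 5102 and 6208 TPM against 3948, 4845 and 4454 TPM. Their log2 differences were 0.39 ± 0.13 and 0.36 ± 0.11 (SE). Rplp0, the longer protein that anchors both, was at 531, 506 and 511 TPM against 441, 537 and 560 TPM, a log2 difference of 0.018 ± 0.10 (SE). By label the groups overlapped for Rplp0 and not for Rplp1 and Rplp2. Set beside Msx1 it was the reverse. Rplp0 was higher in every library with Msx1 under 10 TPM than in any with Msx1 over 50 TPM, while Rplp1 and Rplp2 overlapped.

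Genes with a role in sensing ribosome production had small differences. Rpl11, which with Rpl5 binds Mdm2 when ribosome assembly fails, was at 2117, 2119 and 2084 TPM in the mutant-labelled libraries and 1900, 2173 and 2398 TPM in those labelled control. Its log2 difference was -0.028 ± 0.10 (SE), and that of Rpl5 was -0.10 ± 0.12 (SE). Rps6, the target of S6 kinase, was at 2128, 2098 and 2033 TPM against 2044, 2117 and 2225 TPM, a log2 difference of -0.028 ± 0.07 (SE). The human counterpart of Rps19 is mutated in Diamond-Blackfan anaemia and that of Rpsa in congenital asplenia. The log2 differences (with SE) were 0.11 ± 0.09 for Rps19, 0.081 ± 0.09 for Rpl24 and -0.10 ± 0.09 for Rpsa. By label the groups overlapped for all 6. Set beside Msx1, Rps6 and Rpl24 were each higher in every library with Msx1 under 10 TPM than in any with Msx1 over 50 TPM. For Rpl24 these were 1752, 1732 and 1721 TPM against 1431, 1712 and 1684 TPM. How many of all genes do so was not counted, so this is a description.

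Among the genes with a lower mean under the label mutant, Rpl29 had the largest difference. Rpl4, a long protein lining the exit tunnel, was at 1215, 1174 and 1177 TPM against 1295, 1288 and 1400 TPM, a log2 difference of -0.16 ± 0.07 (SE). Rpl7a was at 2484, 2540 and 2429 TPM against 2595, 2623 and 2838 TPM, a log2 difference of -0.11 ± 0.07 (SE). Rpl10 had a log2 difference of -0.21 ± 0.10 (SE), and its groups overlapped. The smallest adjusted p of these 4 genes in limma was 0.726, for Rpl4.

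The labelled differences were ordered by coding length. The median log2 difference was 0.33 in the 11 tested genes under 300 bases, all of them positive. It was 0.082 in the 50 genes of 300 to under 600 bases, of which 39 were positive, and 0.018 in the 23 of 600 bases and over, of which 12 were positive. Across the 84 genes, Spearman's rho between coding length and the log2 difference was -0.59 and Pearson's r with log2 length was -0.37, given as a description because the genes share the same 6 libraries. The log2 difference had little relation to the shared part of the coding sequence (rho -0.026) or to the mean TPM (rho 0.19).

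Counted gene by gene, genes outside the family showed the same order by length, but the summed share of the shortest did not. Of other genes with a mean of at least 100 TPM, 77.6% of 67 with a coding sequence under 300 bases had a positive difference, with a median of 0.10. Of those with 300 to under 600 bases it was 66.5% of 224 (median 0.058), and of those with 600 bases and over 29.5% of 522 (median -0.058). Short nuclear genes of the respiratory chain, such as Uqcrq and Uqcr10, had a median of 0.15, with 24 positive and 4 negative. They took 1.16%, 1.16% and 1.13% of listed TPM in the mutant-labelled libraries of litters 1, 2 and 3, and 0.994%, 1.19% and 0.972% in those labelled control. The libraries with the lowest share of short ribosomal protein genes, labelled control in litters 1 and 3, were also lowest here. Their part in the result was not tested.

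**Figure D4:**
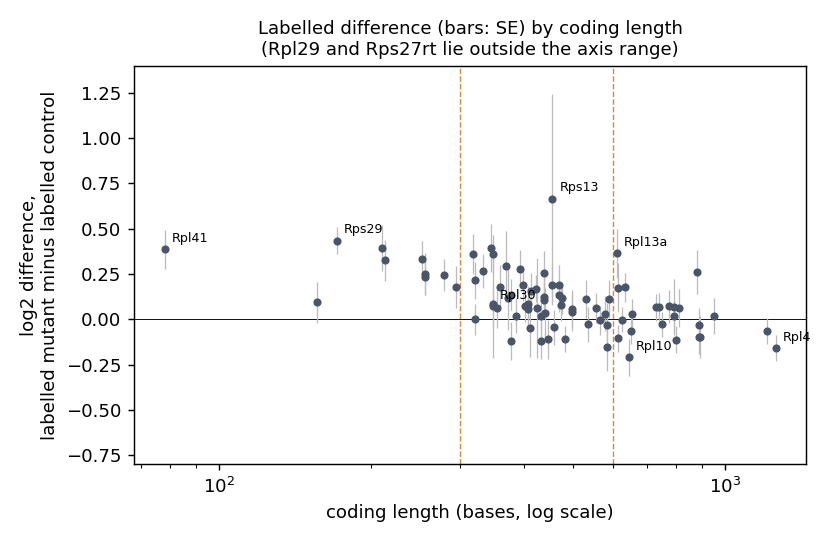
Log2 difference of each tested ribosomal protein gene, labelled mutant minus labelled control (y axis; bars, SE), against its coding length in bases (x axis, log scale; dashed lines at 300 and 600 bases). Points under 300 bases all lie above 0, and the longest genes lie near or below 0; Rpl29 and Rps27rt are outside the range drawn.

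Within litters the family followed a different pattern in each. In litter 1, 76 of 84 genes were higher in the mutant-labelled library (90.5%, against 35.9% of all genes tested), with a median log2 difference of 0.25. In litter 2, 26 of 84 were higher in it, against 48.4% of all genes tested, with a median of -0.047. In litter 3, 46 of 84 were higher in it, against 39.1% of all genes tested, with a median of 0.037.

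Read against Msx1, 24 of 84 genes (28.6%) were higher in the library with less Msx1 in all 3 litters, and 0 were lower in it in all 3. Of all 12152 genes tested, 1314 had the first pattern and 1443 the second. The 24 include Rpl27, Rpl29, Rpl30, Rps7 and Rps9. In litter 1 alone 76 of the 84 genes already had the direction of the first pattern, and 8 that of the second. In 26 genes the mutant-labelled library was higher in litters 1 and 3 and lower in litter 2 (8.06% of all genes tested), and in 19 (22.6%) it was higher in all 3 (7.64% of all genes tested). Another 7 genes (8.33%, against 21.2% of all genes tested) were lower in it in all 3 litters: Rpl4, Rpl5, Rpl7a, Rpl10, Rpl10a, Rpl15 and Rpl21, with coding sequences of 483 to 1260 bases.

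The authors' deposited table gives 1 fold change per gene. Neither its direction nor its groups are stated in it. It lists Msx1 at a log2 fold change of -5.19, so a positive value means higher where Msx1 was lower. It was deposited with the TPM for the same series, and which libraries entered it is not stated. The values below are thus no independent support.

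In the authors' deposited table, 70 of 86 ribosomal protein genes with a p-value had a positive log2 fold change (81.4%), against 50.2% of all 17605 genes with one. Among other genes with a mean of at least 100 TPM it was 53.3%. The median log2 fold change was 0.067 for the ribosomal protein genes and 0.0013 for all genes. None of the 84 with an adjusted p passed 0.05 in the authors' deposited table (0.0961% called among 14572 genes). At an unadjusted p of 0.05, 6 were positive (0.875% of all genes) and 0 were negative (0.971% of all genes).

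Rpl30 had the smallest p of the family in the authors' deposited table: its log2 fold change was 0.51 ± 0.14 (SE), with p = 0.000267 and an adjusted p of 0.185. Rps9, an early-binding small-subunit protein, was at 0.28 ± 0.09 (SE, p = 0.00358) in the authors' deposited table. In litters 1, 2 and 3 its TPM were 2008 and 1762, 2033 and 2475, and 1940 and 2484, each with the mutant-labelled library first. The authors' deposited table lists Rpl27 at 0.30 ± 0.11 (SE, p = 0.00583) and Rps7, another small-subunit protein, at 0.24 ± 0.11 (SE, p = 0.0407). In each of these 4 genes the library with less Msx1 was the higher one in every litter. For Rps7 the libraries with Msx1 under 10 TPM had 666, 719 and 726 TPM and those over 50 TPM had 538, 655 and 604 TPM. These values did not overlap, but Rps7 was not alone in this. Those of Rpl24, Rpl32, Rplp0 and Rps6 did not overlap by Msx1 level either. How many genes of the family, or of all genes, separate in this way was not counted. Rps7 was also named after its values were seen, so this is a description. For Rps9, Rpl27 and Rpl30 the values overlapped.

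For the departing genes, the authors' deposited table gives Rpl29 at 1.78 ± 0.66 (SE, p = 0.00671) and Rps13 at -0.42 ± 0.68 (SE, p = 0.536). Rps27rt stands in the authors' deposited table at 10.41 ± 3.84 (SE, p = 0.00675), although its TPM in litter 3 were 77.9 in the library with more Msx1 and 0 in the one with less, so this value is no measure of size. The negative values with the smallest p in the authors' deposited table were those of Rps21 (-0.089 ± 0.17), Rps25 (-0.089 ± 0.11), Rps13 and Rpl13a (-0.17 ± 0.31), with SE. The smallest of these p was 0.43, for Rps25.

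**Figure D5:**
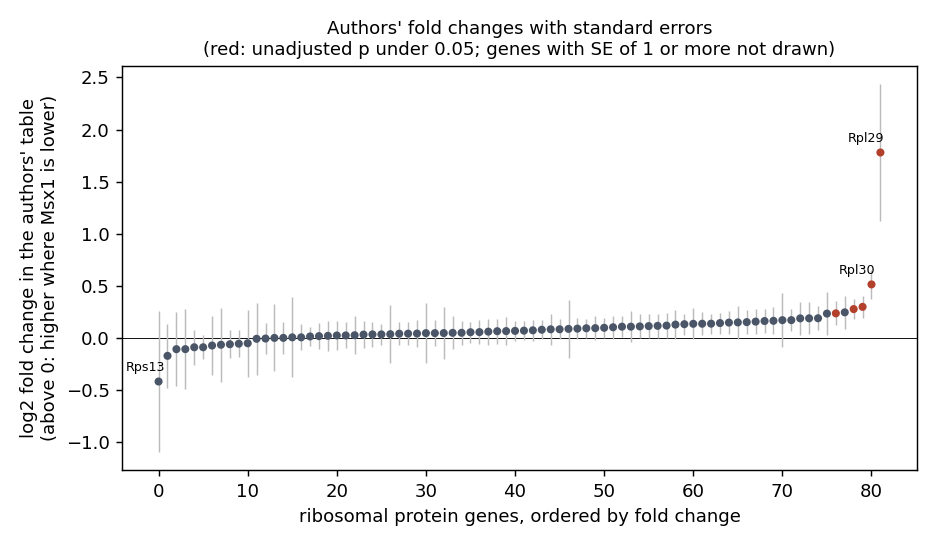
Log2 fold change in the authors' deposited table (y axis; bars, the authors' standard error; above 0 means higher where Msx1 was lower) for the ribosomal protein genes, ordered by size (x axis). Red points have an unadjusted p under 0.05; most points lie slightly above 0, and Rpl29 and Rpl30 lie highest among those drawn.

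The short genes that stood out by label had small values in the authors' deposited table. Msx1 runs against the label in litters 2 and 3. A gene higher under the label mutant in every litter is thus lower in the library with less Msx1 in those litters. The values here therefore follow in part from the design and are no separate result. Rps29 had -0.11 ± 0.36 (SE) and Rpl41 -0.065 ± 0.36 (SE) in the authors' deposited table. Across 84 genes, rho between coding length and the authors' fold change was 0.19. Rps29, Rpl41, Rps28, Rplp1, Rplp2, Rpl36 and Rpl38 were among 20 genes whose standard error in the authors' deposited table was over 0.25. For the standard subunit genes outside these 20 it was 0.09 to 0.17.

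Other parts of the ribosome pathway were followed through lists. Among proteins of the ribosome outside the symbol rule, the labelled log2 difference was 0.28 for Fau and 0.075 for Rack1. Genes of ribosome assembly and the nucleolus had a median of -0.090, with 12 positive and 23 negative, and RNA polymerase I genes had -0.11, with 4 positive and 10 negative. Ncl, the nucleolar protein nucleolin, was at -0.38, and Znrd1, an RNA polymerase I subunit, at -0.26. 

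Translation factors that also carry TOP mRNAs, such as Eef1a1 and Pabpc1, had a labelled median of -0.010, with 8 positive and 9 negative of 17. Regulators of TOP mRNAs and growth had -0.057 (5 positive and 9 negative of 14), and p53 targets -0.030 (5 and 8 of 13). The mitochondrial ribosomal protein genes had 0.021 (43 and 35 of 78), with the 2 smallest p for Mrps14 (0.69) and Mrpl52 (0.34). Mitochondrially encoded genes had -0.14 (3 and 10 of 13), and red blood cell markers 0.41 (12 and 0 of 12). The mutant-labelled library of litter 1 stood apart in these markers, at 3.07% of listed TPM against 0.963% in the labelled control. In litter 2 the shares were 1.08% and 1.32%, and in litter 3 they were 1.22% and 1.04%, in the same order. In limma 0 genes of any of these lists were called; unadjusted p were under 0.05 for 6 of 35 assembly genes, 5 of 78 mitochondrial ribosomal protein genes and at most 1 in each of the other lists of these 2 paragraphs, and their medians stand beside -0.062 for all genes tested. In the authors' deposited table the medians were -0.011 for assembly genes, 0.11 for RNA polymerase I genes, 0.014 for the TOP translation factors, 0.012 for the mitochondrial ribosomal protein genes and 0.55 for red blood cell markers. Mitochondrially encoded genes had -0.12 there, with 2 positive and 11 negative. Of these 13, mt-Co3 alone had an adjusted p under 0.05 in the authors' deposited table (0.0961% called among 14572 genes). No gene of the other lists did.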

How the data were processed

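Polyadenylated RNA of 6 libraries was analysed. The authors deposited 1 TPM value per gene and library, and per the submitters' processing notes used Salmon 1.5.2, DESeq2 (version not given) and mm10; how transcripts were joined into genes is, in the sources used here, not given. Listed TPM summed to 716208 to 735601 per library, and depth is unknown. Per the file headers, the authors' table holds a base mean (a signal), a log2 fold change with its standard error, a score (their quotient), and unadjusted and adjusted p-values; missing values were left missing.

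limma 3.58.1 (R 4.3.3; trend and robust moderation) was fitted to log2(TPM + 1) for the 12152 genes that reached 1 TPM in 3 or more libraries, without a litter term, with Benjamini-Hochberg adjustment over all of them; this scale understates changes of low genes. Litter pairs the libraries by the design text, although same-litter deviations had r of -0.055, -0.028 and -0.026. On simulated data for the labelled comparison (12152 genes), 61% of 100 genes given a change of 1 log2 unit and 92% of 100 given 2 were called, with 11 unchanged genes called.

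Coding lengths, copies and pairwise identities came from GENCODE M21 (GRCm38), with 1 transcript per gene, and start sites from RefSeq (GRCm38.p6). The members, lists and naming rule were chosen with earlier results of these data known. Named were Msx1; the 6 highest and 6 lowest standard genes by mean TPM; the 4 smallest p of each sign in the labelled fit and in the authors' table; departing genes; paralogs with their parents; and genes of known role. Rpl8, Rpl28, Rpl35, Rps3, Rps3a1, Rps7, Rps10, Rps28 and genes listed in counts were named after their values were seen, as was the retrogene Rps23rg1, added to the paralogs. Splits by coding length and other genes by length were also added then. Results of some genes that these rules name are not reported here.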

Additional observations from a re-analysis of the deposited data

How the results depend on the processing

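Depth is unknown and each label has 3 embryos, so differences of the size seen here were mostly within the spread between libraries, and the labels are contradicted by Msx1 in litters 2 and 3. Neither pseudocount, low-value filter, scaling nor a replicate block for litter (0 genes called, as without it) changed the count of 0 genes called in limma. Leaving out each library gave 0 to 1 genes called: Rpl29 without the mutant-labelled library of litter 1, and Gm5244 without the control-labelled library of litter 1; ribosomal protein genes called ranged from 0 to 1. The median log2 difference of the family ranged from 0.017 to 0.14 and the difference in summed share from 1.19 to 2.83 percentage points (exact permutation p 0.1 to 0.3). With the replicate block, litters taken as pairs, the exact sign-flip permutation test of the share gave p = 0.5 and cannot go below 0.25. The block changed no other call.

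Of 37 named and tested genes, 26 kept their sign in every alternative run. Median-of-ratios scaling turned Rpl11 to 0.044, Rpl27 to 0.026 and Rps6 to 0.043, rescaling to the other listed genes turned Rpl11 to 0.0060 and Rps6 to 0.0054, and quantile normalization turned Rpl32 to -0.028 and Rplp0 to -0.012. Leaving out each library, the log2 difference ranged from -0.12 to 0.052 for Rpl11, -0.036 to 0.080 for Rpl12, -0.0091 to 0.13 for Rpl24, -0.23 to 0.098 for Rpl27, -0.20 to 0.33 for Rpl30, -0.064 to 0.12 for Rpl32, -0.059 to 0.062 for Rpl36al, -0.087 to 0.085 for Rplp0, -0.041 to 1.10 for Rps13, -0.12 to 0.14 for Rps16 and -0.057 to 0.0042 for Rps6; the cause was not tested.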
